A study of Mus musculus with 6 samples.

Results

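A group of 7 GABA-A receptor subunit genes was followed in cultured mouse cerebellar granule cells (GCs) after knockdown of the m6A reader Ythdf2. They were Gabra2, Gabra3, Gabra4, Gabra5, Gabra6, Gabrb2 and Gabrd, taken by name, which are 7 of the 53421 genes in the deposited table. All 7 passed the filter on low counts. The names were given as a gene family, with earlier results of these data known.

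GABA-A receptors are chloride channels built of several subunits that open when GABA binds, and most hold alpha and beta subunits together with a gamma or a delta subunit. The alpha subunit sets much of the drug response and the place of the receptor on the cell. In the cerebellum, Gabra2 and Gabra3 are typical of young GCs, while Gabra6 and Gabrd come on as GCs mature, where delta-containing receptors carry a steady inhibition outside the synapse.

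Libraries were made from GCs of C57BL/6 pups, labelled as postnatal day 8, that were infected with lentivirus and selected with puromycin. A group of 3 libraries received 1 hairpin against Ythdf2 (shYthdf2), and the other 3 libraries received a control hairpin (shCtrl). Both groups therefore share infection, selection and culture. The library names carry the replicate numbers 1, 2 and 4 in each group. The study's methods call them biological replicates, without saying which pups or cultures each came from, and p-values measure the spread between these libraries. The sample titles and genotype labels name the groups the opposite way from the library names. The library names were followed here, since they carry the number of a Ythdf2 hairpin in the study's methods. Ythdf2 counts, given below, were lower in the libraries so named. Every direction inverts if the titles were right.

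Totals ran from 17246821 to 21546595 counts for shCtrl and from 17646408 to 19533010 for shYthdf2. In these bulk libraries, fewer cells of a type and less RNA per cell cannot be told apart. Ythdf2, the targeted gene, had 499.55, 401 and 499.66 normalized counts in shYthdf2 replicates 1, 2 and 4, against 617, 839 and 627 in shCtrl. All shYthdf2 libraries lay below all shCtrl libraries, at 67.3% of the control mean. Groups without overlap, in either direction, were found for 26.0% of all genes tested. The log2 fold change was -0.57 (SE 0.16, adjusted p = 0.125 by the edgeR quasi-likelihood test, Benjamini-Hochberg over all genes, and 0.00124 to 0.363 over 15 alternatives). Normalized counts are counts scaled by edgeR's TMM factors to a common library size, and log2 fold changes are shYthdf2 over shCtrl throughout.

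Replicates 1 and 4 lay close together within each group, and replicate 2 stood apart in both. The fits of the 7 subunits are therefore given with and without replicate 2. GC transcripts were abundant in all libraries. Neurod1, a GC transcription factor, had 18836 ± 344 normalized counts in shCtrl and 15132 ± 318 in shYthdf2 (SD, n = 3). The summed level of 11 mature GC markers ran from 64341 to 87817 in shCtrl and from 60205 to 73772 in shYthdf2. Markers of other cell types were present too. The 8 oligodendrocyte markers summed to 4082, 14059 and 3973 in shCtrl replicates 1, 2 and 4, and to 9880, 12923 and 10329 in shYthdf2. Their sums were low in shCtrl replicates 1 and 4 alone.

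Compared per length in shCtrl, the 7 subunits spanned from Gabrd at the top to Gabra5 at the bottom. The unit is RPKM, the TMM-normalized CPM for each kilobase of exon, in which the genes tested had a median of 4.38 and quartiles of 1.04 and 13.1. Gabrd, the delta subunit, had 18.2 ± 6.83 RPKM, and Gabra6, the alpha subunit most specific to GCs, had 14.5 ± 9.65 (SD, n = 3). Gabra3 followed with 9.02 ± 2.35, Gabra2 with 6.32 ± 1.64 and Gabrb2, the beta subunit, with 5.85 ± 1.70. Gabra4, an alpha subunit that often pairs with delta in the forebrain, had 4.03 ± 0.215, and Gabra5 had 1.05 ± 0.531. From Gabrd down to Gabrb2, each subunit overlapped its neighbour in the range of the 3 shCtrl libraries. Gabrb2, Gabra4 and Gabra5 had ranges that did not overlap, at 4.70 to 7.81, 3.79 to 4.20 and 0.447 to 1.43 RPKM.

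In shYthdf2 the order at the top changed, with overlapping ranges. Gabra6 had 17.1 ± 10.1 RPKM, Gabrd 14.7 ± 2.88 and Gabra3 12.6 ± 1.90 (SD, n = 3). Within libraries, Gabrd was above Gabra6 in all 3 shCtrl libraries and in 2 of 3 shYthdf2 libraries. The exception was replicate 2 of shYthdf2, with 28.7 RPKM for Gabra6 and 18.0 for Gabrd.

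**Figure D1:**
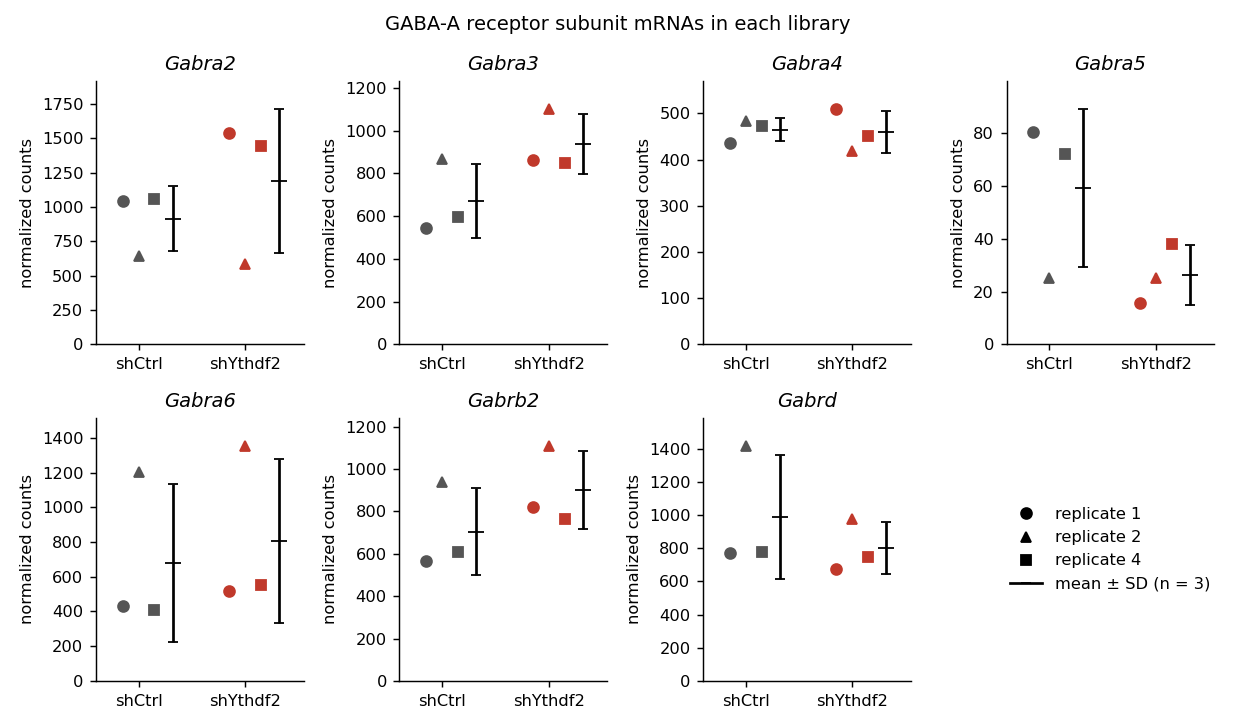
Normalized counts (y axis, linear from 0) of the 7 subunits in each shCtrl (grey) and shYthdf2 (red) library, with the marker shape giving the replicate number and black bars the mean ± SD of 3 libraries. Replicate 2 was the highest library of its group for Gabra3, Gabra6, Gabrb2 and Gabrd in both groups and the lowest for Gabra2, and the groups overlapped for all 7 genes.

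The comparison of shYthdf2 with shCtrl asked whether lower Ythdf2 went with other levels of these subunit mRNAs. Of the 7, 4 had a higher and 3 a lower fitted level in shYthdf2, with a median log2 fold change of 0.245 beside 0.00824 over all 17214 genes tested. None of the 7 passed an adjusted p of 0.05 (edgeR's quasi-likelihood test, Benjamini-Hochberg over all genes tested), which 104 genes or 0.604% passed. DESeq2 and limma-voom also called 0 of the 7, where DESeq2 called 7.67% of all genes. At an unadjusted p under 0.05, 1 subunit passed, Gabra3, beside 20.1% of all genes. Groups without overlap were found for 0 of the 7 and for 26.0% of all genes.

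Among the alpha subunits of young neurons, Gabra3 was the nearest to a difference. It had 862, 1100.45 and 850.1 normalized counts in shYthdf2 replicates 1, 2 and 4, and 544, 869 and 596 in shCtrl. shYthdf2 was higher for each replicate number, but shCtrl replicate 2 lay above shYthdf2 replicates 1 and 4. Its log2 fold change was 0.49 (SE 0.20, 95% CI 0.02 to 0.95, adjusted p = 0.234 by edgeR).

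Gabra2, the alpha subunit of many forebrain synapses, had 1537, 587 and 1443 normalized counts in shYthdf2 and 1042, 639.6 and 1059.6 in shCtrl. It was higher in shYthdf2 for replicates 1 and 4 and slightly lower for replicate 2, whose libraries were the lowest of their groups. This gave a log2 fold change of 0.38 (SE 0.36, 95% CI -0.47 to 1.23, adjusted p = 0.603 by edgeR).

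Gabra5, which marks extrasynaptic receptors of hippocampal neurons, was the least abundant of the 7. It had 15.6, 25.1 and 38.1 normalized counts in shYthdf2 and 80.5, 25.1 and 72.3 in shCtrl. The level was lower in shYthdf2 for replicates 1 and 4 and equal to 3 digits for replicate 2. Its log2 fold change of -1.17 was the largest of the 7 in size (SE 0.51, 95% CI -2.36 to 0.01, adjusted p = 0.252 by edgeR), and it rests on 15 to 91 counts per library.

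The immediate-early genes, which neurons switch on with activity, also differed between these shCtrl libraries. The 10 genes summed to 50696 and 49575 normalized counts in shCtrl replicates 1 and 4, 12539 in shCtrl replicate 2, and 3004 to 5191 in shYthdf2. Of the 9 tested, 8 were lower in shYthdf2, and 2 passed the adjusted threshold, Npas4 (log2 fold change -4.89, adjusted p = 0.0430 by edgeR) and Nr4a3 (-3.44, adjusted p = 0.0430). DESeq2 called 7 and limma-voom 0 of these genes. Of all genes, edgeR called 0.604% and DESeq2 7.67%. Over 15 alternatives, the adjusted p ran from 5.94e-18 to 0.286 for Npas4 and from 5.26e-17 to 0.286 for Nr4a3. Both calls were lost whenever replicate 1 or 4 of either group was left out, as were the calls of all other genes. The part of the immediate-early genes in the Gabra5 values was not tested.

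Of the subunits of mature GCs, Gabra6 had 516, 1354 and 550.5 normalized counts in shYthdf2 and 431, 1206 and 407 in shCtrl. In each group, replicate 2 lay further from replicates 1 and 4 than any pair with the same number differed. Replicates 1 and 4 differed less within a group than from the same number in the other group. The log2 fold change was 0.25 (SE 0.52, 95% CI -0.98 to 1.47, adjusted p = 0.828 by edgeR), an interval that reaches well to either side of 0.

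Gabrd had 677, 977 and 749 normalized counts in shYthdf2 and 772, 1417 and 776 in shCtrl. It was the only one of the 7 that was lower in shYthdf2 for every replicate number, as 26.9% of all genes were. The log2 fold change was -0.30 (SE 0.26, 95% CI -0.92 to 0.32, adjusted p = 0.567 by edgeR), and most of it lay in replicate 2, where the pair differed by -0.54 beside -0.19 and -0.05 in replicates 1 and 4. It was -0.26 with a term for replicate 2 (adjusted p = 0.109 by edgeR), -0.12 without both libraries of replicate 2 (adjusted p = 0.144), and 0.05 without shCtrl replicate 2 alone (adjusted p = 0.860).

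Gabrb2, the partner of alpha subunits at many synapses, had 823, 1109 and 765 normalized counts in shYthdf2 and 565, 939 and 607 in shCtrl. Like Gabra3 and Gabra6, it was higher in shYthdf2 for every replicate number, which held for 27.0% of all genes. Its log2 fold change was 0.35 (SE 0.23, 95% CI -0.18 to 0.89, adjusted p = 0.434 by edgeR).

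Gabra4 varied the least. It had 509, 419 and 452 normalized counts in shYthdf2 and 436, 483 and 473 in shCtrl. Its log2 fold change was -0.01 (SE 0.12, 95% CI -0.30 to 0.28, adjusted p = 0.964 by edgeR), and it was 0.02 when scaled by library size alone. The exact permutation test over the libraries, two-sided, can reach no less than 0.1 with 3 against 3.

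**Figure D2:**
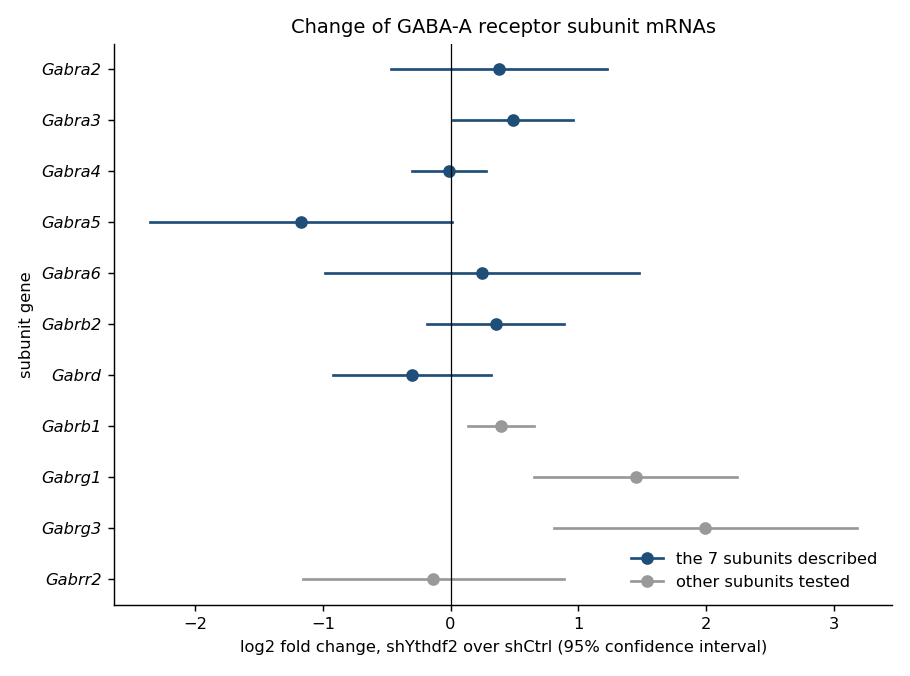
Log2 fold change of shYthdf2 over shCtrl (x axis, points) with its 95% confidence interval (lines) from edgeR for the 7 subunits (blue) and for 4 other subunit genes that were tested (grey). The interval of Gabra3 begins just above 0 at 0.02, that of Gabra5 ends just above 0 at 0.01, and those of Gabra2, Gabra4, Gabra6, Gabrb2 and Gabrd hold 0 well inside.

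For several subunits, replicate 2 differed from replicates 1 and 4 by more than the group means differed. In shCtrl, replicate 2 was 2.88-fold the mean of replicates 1 and 4 for Gabra6, and in shYthdf2 it was 2.54-fold. Gabra6 was the only one of the 7 more than 2-fold apart in the same direction in both groups, which held for 3.3% of all genes. Gabrd was 1.83-fold and 1.37-fold as high in replicate 2 of shCtrl and shYthdf2, Gabrb2 1.60-fold and 1.40-fold, and Gabra3 1.52-fold and 1.29-fold.

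Gabra2 went the opposite way, at 0.609-fold in shCtrl and 0.394-fold in shYthdf2. Gabra5 was 0.329-fold in shCtrl but 0.935-fold in shYthdf2, and Gabra4 was near 1 in both, at 1.06-fold and 0.871-fold. Replicate 2 thus held more Gabra3, Gabra6, Gabrb2 and Gabrd and less Gabra2 in both groups. Of the 17214 genes tested, 5906 were higher and 5862 lower in replicate 2 in both groups. Gabra2 and Gabra3, both typical of young GCs, went opposite ways there.

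Other genes moved with replicate 2 in the same libraries. Of the 11 mature GC markers, 8 were higher in replicate 2 in both groups, as were 5906 of the 17214 genes tested. The median log2 difference of these markers was 0.689 in shCtrl and 0.469 in shYthdf2, beside 0.00061 and 0.00217 over all genes. The vascular and fibroblast markers summed to 8642 normalized counts in shCtrl replicate 2 beside 3088 and 3000 in replicates 1 and 4, and to 10542 beside 4172 and 4294 in shYthdf2. Markers of Purkinje cells summed to only 857 to 1207 over the 6 libraries. The part of these cells in the subunit values was not tested.

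**Figure D3:**
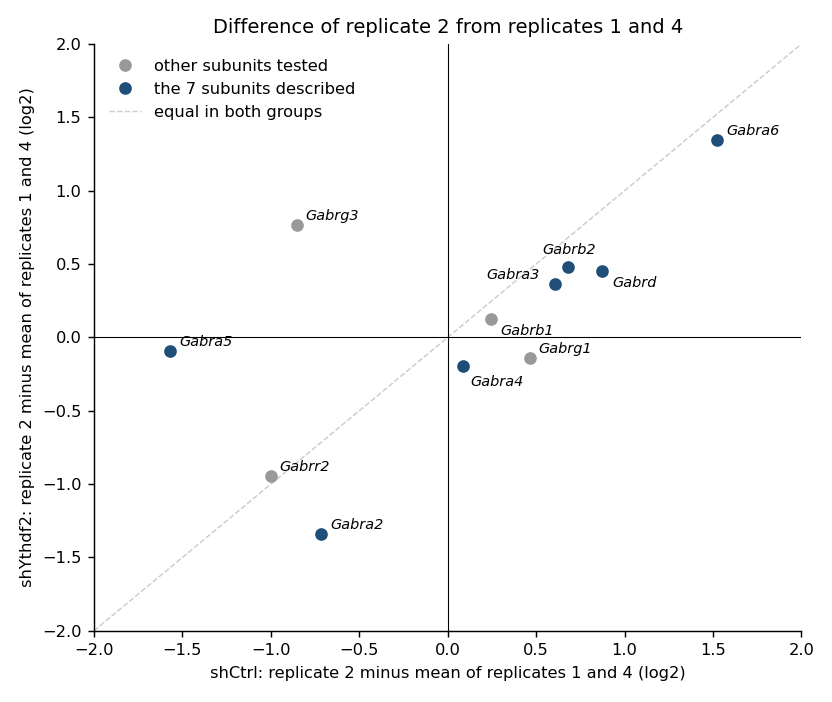
Log2 difference of replicate 2 from the mean of replicates 1 and 4 in shCtrl (x axis) against the same in shYthdf2 (y axis), 1 point per subunit gene, with the dashed line marking equal differences. Gabra6 sits at the upper right (1.52 and 1.34) and Gabra2 at the lower left (-0.72 and -1.34), while Gabra5 sits apart with -1.57 in shCtrl and -0.09 in shYthdf2.

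With a term for replicate 2 in the edgeR model, 3 of the 7 passed the adjusted threshold, as did 22.1% of all genes. These were Gabra3 (log2 fold change 0.50, adjusted p = 0.0136), Gabrb2 (0.37, adjusted p = 0.0235) and Gabra6 (0.28, adjusted p = 0.0397), all higher in shYthdf2. Without both libraries of replicate 2, edgeR called 5 of the 7 beside 52.7% of all genes. In that fit Gabra2 had a fitted log2 fold change of 0.50 (adjusted p = 9.46e-07), Gabra3 0.59 (3.58e-06), Gabrb2 0.44 (9.13e-05), Gabra6 0.34 (0.00164) and Gabra5 -1.52 (0.000548). Gabra4 had 0.08 (0.461) and Gabrd -0.12 (0.144). This fit rests on replicates 1 and 4 alone, which lay close together within each group, and its p-values measure only that spread. Whether replicates 1 and 4 came from separate cultures is not given.

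Without shCtrl replicate 2 only, 2 of the 7 were called, Gabra3 (0.72, adjusted p = 0.0210) and Gabra5 (-1.54, adjusted p = 0.0325), beside 18.3% of all genes. With the replicate number as a block, 0 of the 7 passed beside 1.35% of all genes. Over the 15 alternatives, the adjusted p ran from 9.46e-07 to 0.912 for Gabra2, from 3.58e-06 to 0.566 for Gabra3, from 0.000548 to 0.584 for Gabra5, from 0.00164 to 0.998 for Gabra6 and from 9.13e-05 to 0.775 for Gabrb2. Gabra4 and Gabrd were called in none of them.

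The makeup of the 5 alpha subunits among the 7 genes was given by each gene's share of their summed RPKM. The sum was 28.9, 46.4 and 29.4 RPKM in shCtrl replicates 1, 2 and 4 and 37.9, 51.7 and 37.8 in shYthdf2, so that shYthdf2 was higher for each number while the groups overlapped. Gabra6 took 29.4% to 55.2% in shCtrl (median 31.6%) and 28.9% to 55.6% in shYthdf2 (median 31.0%), with the highest share in replicate 2 of each group. Gabra3 took 25.2% to 27.3% in shCtrl and 28.7% to 30.6% in shYthdf2. These Gabra3 shares did not overlap between the groups, while its normalized counts and the shares of Gabra2, Gabra4, Gabra5 and Gabra6 did. Normalized counts without overlap were found for 26.0% of all genes. A share also depends on the other alpha subunits in the sum, and no test was run on the shares.

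Gabra2 took 24.9% of the summed level in the median shCtrl library and 26.5% in the median shYthdf2 library, with 9.54% and 7.85% in replicate 2. Gabra4 took 9.05% to 14.0% and 7.03% to 11.7%. Gabra5 took 0.963% to 4.95% in shCtrl and 0.733% to 1.8% in shYthdf2.

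**Figure D4:**
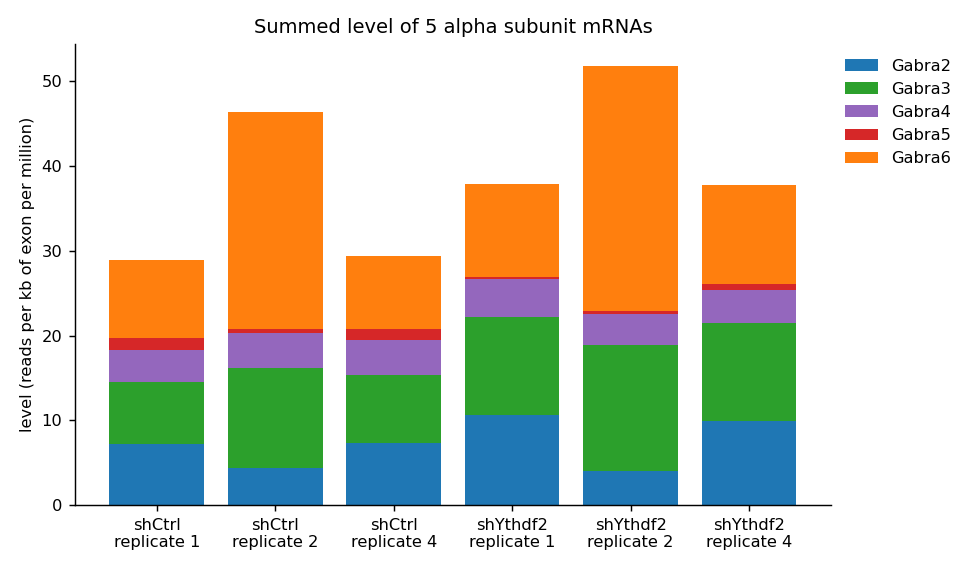
Stacked bars of the level of 5 alpha subunit mRNAs (y axis, RPKM, from 0) in each of the 6 libraries. The bars of replicate 2 are the tallest, at 46.4 in shCtrl and 51.7 in shYthdf2, with Gabra6 as their largest block, and Gabra5 is the thinnest block in every bar.

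Some of the 7 genes lie near each other, and the positions below are those of GENCODE M21 on GRCm38. Gabra6 (chr11:42306437-42321072, minus strand) and Gabrb2 (chr11:42419757-42629028, plus strand) point away from each other with 98.7 kb between them. Gabra2 (chr5:70957597-71095849) and Gabra4 (chr5:71569749-71658308) lie on the minus strand 473.9 kb apart, between Gabrg1 and Gabrb1. Gabra5 (chr7:57407672-57510059) and Gabra3 (chrX:72432681-72656848) lie on the minus strand of chromosomes with no other of the 7, and Gabrd (chr4:155384980-155398112, minus strand) is likewise alone on its chromosome. The neighbours Gabra6 and Gabrb2 were both higher in replicate 2, while Gabra2 was lower there and its neighbour Gabra4 was not in shCtrl.

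Some of these genes overlap others on the opposite strand, and whether the counting used strand is not given in the sources used here. Gabra5 shares 148 exon bases with the antisense gene Gm9962, which had up to 3 counts where Gabra5 had as few as 15. Gabra4 shares 46 exon bases with Gabrb1. Without strand, reads of such partners cannot be told apart.

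Across the 6 libraries, Gabra3 and Gabrb2 had the most alike levels of any pair among the 7 (Pearson's r 0.969), and Gabra6 and Gabrb2 had r 0.909. Gabra2 ran against both mature subunits, with r -0.822 to Gabra6 and -0.838 to Gabrd. Gabra3, also typical of young GCs, had r 0.797 to Gabra6 and 0.359 to Gabrd. These are descriptions over 6 libraries that share the replicate 2 difference. Of 11567 protein-coding genes with a mean of at least 50 normalized counts, those most like Gabra6 were Lgals1, Ywhah and Axl (r 0.9993 each), with 410 genes over 0.95. Those most like Gabrd were Zmynd19 (0.9968), Gap43, a growth cone protein (0.996), and Slc31a1, a copper transporter (0.9941), with 224 over 0.95.

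The upstream sequences of the 2 subunits that differed most in replicate 2 in opposite directions, Gabra6 and Gabra2, and of Gabra5, the one with the largest fold change, are shown to set those values beside the genes. NFI factors are known to act on the Gabra6 promoter in GCs, so the NFI core letters TTGGC, read as GCCAA on the other strand, were searched in the 250 bases before each start, in RefSeq on GRCm38.p6. The bases run 5′ to 3′ on the strand of the gene, and capitals mark the matches. Of the 7 subunits, 6 had an entry, all but Gabrd.

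Gabra6, chr11:42321073-42321322, minus strand: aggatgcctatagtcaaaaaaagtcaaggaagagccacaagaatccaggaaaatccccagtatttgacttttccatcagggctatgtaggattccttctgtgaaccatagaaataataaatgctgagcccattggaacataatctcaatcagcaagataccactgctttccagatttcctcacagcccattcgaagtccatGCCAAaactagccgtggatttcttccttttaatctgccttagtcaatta
Gabra2, chr5:71095850-71096099, minus strand: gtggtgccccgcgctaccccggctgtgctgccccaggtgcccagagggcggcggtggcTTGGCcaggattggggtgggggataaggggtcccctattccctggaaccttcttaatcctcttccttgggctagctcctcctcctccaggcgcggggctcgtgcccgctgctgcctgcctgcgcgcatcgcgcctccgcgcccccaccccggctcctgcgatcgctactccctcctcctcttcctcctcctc
Gabra5, chr7:57510060-57510309, minus strand: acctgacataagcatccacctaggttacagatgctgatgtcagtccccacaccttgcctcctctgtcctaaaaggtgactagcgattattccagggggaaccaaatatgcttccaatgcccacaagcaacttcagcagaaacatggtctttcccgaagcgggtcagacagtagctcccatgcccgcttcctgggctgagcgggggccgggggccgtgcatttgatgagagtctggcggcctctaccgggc

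Gabra6 held 1 match that began 49 bases before the start, and Gabra2 held 1 at 192 bases. Gabra5 held 0. At least 1 such match is found in 41.5% of 32851 promoters of that length, so both Gabra6, high in replicate 2, and Gabra2, low there, held a match that is common. Base composition differed more, with 40.8% G and C before Gabra6, 56.4% before Gabra5 and 70.0% before Gabra2.

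YTHDF2 is known to bind m6A, which lies mostly in a short sequence context of which GGACT is the best known form. The letters GGACT were counted on the sense strand of each gene's longest protein-coding transcript, which says nothing on whether a site is methylated. Gabra3 had 8 matches (2.18 per kb), Gabra6 5 (2.03 per kb), Gabrb2 6 (1.5 per kb), Gabra5 4 (1.5 per kb), Gabra2 8 (1.37 per kb), Gabrd 1 (0.521 per kb) and Gabra4 0. The median of 21782 genes was 1.01 per kb. The 5 subunits above that median were Gabra2, Gabra3, Gabra5, Gabra6 and Gabrb2, of which Gabra5 had a lower and the other 4 a higher fitted level in shYthdf2, with none past the adjusted threshold.

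Another 9 subunit genes were looked at for context, of which 4 could be tested. None passed the adjusted threshold in edgeR or limma-voom, and DESeq2 called 1, Gabrg1, beside 7.67% of all genes. In edgeR, Gabrb1, Gabrg1 and Gabrg3 had an unadjusted p under 0.05, as did 20.1% of all genes. All 3 had higher levels in shYthdf2, a direction that the filter favoured for Gabrg1 and Gabrg3, as given below. Gabrb1 had a log2 fold change of 0.40 (SE 0.11, adjusted p = 0.121), with 1042, 1148 and 1059.7 normalized counts in shYthdf2 and 779, 919 and 770.3 in shCtrl. With a term for replicate 2 its adjusted p was 0.0118, and over 15 alternatives it ran from 1.26e-05 to 0.430 with 3 calls. Gabrr2, a rho subunit, had -0.13 (SE 0.44, adjusted p = 0.891).

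Gabrg1 and Gabrg3 had low levels and large differences. Gabrg1 had 25.03, 30.0 and 41.3 normalized counts in shYthdf2 and 10.6, 14.5 and 9.86 in shCtrl (log2 fold change 1.45, SE 0.34, adjusted p = 0.0892 by edgeR). Gabrg3 had 12.5, 20.3 and 10.6 against 5.31, 1.93 and 3.29 (1.99, SE 0.51, adjusted p = 0.103). Over 14 alternatives, Gabrg1 was called in 4, with an adjusted p from 0.00179 to 0.359, and Gabrg3 in 1, with 0.0371 to 0.342 where the fit gave one. Gabrg3 had only 2 to 6 counts per shCtrl library and passed the filter on low counts through shYthdf2, so its direction was favoured by the filter. Gabrg1 had 12, 15 and 9 counts in shCtrl, near the minimum count of 10. The shCtrl libraries alone did not carry Gabrg1 past the filter, so its direction was favoured too. Both are in a list that the study picked on these libraries, so their direction is not independent evidence. Gabre, Gabrq and Gabrr1 stayed at or under 15 counts per library and were not tested, and Gabrp and Gabrr3 were at or near 0. Gabre had 1, 0 and 1 counts in shYthdf2 and 12, 0 and 14 in shCtrl. Gabrq had 5, 6 and 5 counts in shYthdf2 and 9, 8 and 13 in shCtrl, and Gabrr1 had 3, 15 and 3 against 6, 12 and 2.

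Among 24 genes of receptor clustering and trafficking, 7 had a higher and 17 a lower fitted level (median log2 fold change -0.106). By edgeR's adjusted threshold 2 were called, both higher in shYthdf2, beside 0.604% of all genes. DESeq2 called 7 of the 24, beside 7.67% of all genes, and limma-voom called 0. Plcl1, a binding partner of GABA-A receptors in their trafficking, had 1008, 1006 and 1077 normalized counts in shYthdf2 and 639.7, 702 and 630.05 in shCtrl (log2 fold change 0.65, SE 0.10, adjusted p = 0.0496 by edgeR). Dmd, dystrophin, which is found at a part of inhibitory synapses, had 562, 486 and 577 against 273, 324 and 249.8 (0.94, SE 0.15, adjusted p = 0.0496). Their groups did not overlap, which held for 12 of the 24 genes (5 higher and 7 lower) and for 26.0% of all genes. Both calls are near the threshold, and the adjusted p over 15 alternatives ran from 1.71e-07 to 0.286 for Plcl1 and from 3.1e-08 to 0.286 for Dmd. Each kept its call in 2 of the 6 fits that left out 1 library, and the other such fits called no gene at all.

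Of 9 cation chloride cotransporter genes and their kinases, which set the direction of the chloride current, 5 were higher and 4 lower (median 0.13). At the adjusted threshold edgeR and limma-voom called 0 and DESeq2 called 1, beside 7.67% of all genes in DESeq2. An unadjusted p under 0.05 in edgeR was found for 2 of the 9, beside 20.1% of all genes. Slc12a2, which loads chloride into young neurons, had a log2 fold change of 0.31 (SE 0.12, adjusted p = 0.201 by edgeR), and Wnk2, a kinase that regulates such transporters, -0.63 (SE 0.19, adjusted p = 0.141). Of 6 genes of GABA-B receptors and of GABA uptake and breakdown, 3 were higher and 3 lower (median 0.105), with 0 past the threshold in edgeR, limma-voom and DESeq2 and 0 at an unadjusted p under 0.05.

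Marker lists of cell types other than GCs were uneven between the groups, with 0 genes past the adjusted threshold in edgeR and limma-voom. DESeq2 called 0 or 1 per list, and 0 or 1 per list had an unadjusted p under 0.05 in edgeR. Over all genes these shares were 7.67% and 20.1%. All 8 oligodendrocyte markers had a higher fitted level in shYthdf2, as did 9 of 10 astrocyte markers, such as Aqp4 (log2 fold change 0.87, adjusted p = 0.173 by edgeR). Their sums for astrocytes were 6084, 13913 and 6166 in shCtrl and 11784 to 12919 in shYthdf2. GABAergic interneuron markers were higher for 7 of 9, such as Gad1 (0.49, adjusted p = 0.0876), and summed to 8312 to 8718 in shCtrl and 9582 to 11111 in shYthdf2. Interneurons and glia express subunits of this family as well, and their part in the subunit values was not tested.

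All 6 tested microglia markers and all 8 tested vascular and fibroblast markers, such as Kdr (0.82, adjusted p = 0.119), also had higher fitted levels, while all 5 unipolar brush cell markers, such as Eomes (-1.80, adjusted p = 0.0502), were lower, 4 of them when scaled by library size alone. Microglia markers summed to 154, 613 and 140 normalized counts in shCtrl replicates 1, 2 and 4 and to 776, 314 and 812 in shYthdf2. Their sum was thus lower in shYthdf2 for replicate 2, and 1 of the 6 was higher for every replicate number. Unipolar brush cell markers summed to 9235 to 9878 in shCtrl and 7786 to 8460 in shYthdf2. Of 11 tested markers of immature GCs, 6 were higher and 5 lower, among them Grin2b (0.64, adjusted p = 0.0508) and Barhl1 (-0.61, adjusted p = 0.0651). Of 11 mature GC markers, 6 were higher and 5 lower (median 0.0501), with Cbln1 (-0.64, adjusted p = 0.140) and Neurod1 (-0.32, adjusted p = 0.124) among the lower. Of the 7 Purkinje cell markers tested, 2 were higher and 5 lower (median -0.132), with Pcp4 (1.26, adjusted p = 0.164) among the higher. No listed marker was at 0 in all libraries.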

How the data were processed

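RNA-seq of 6 libraries of cultured GCs, 3 per group, was used. By the study's methods, the authors cleaned the reads, aligned them by HISAT and TopHat2 on GRCm38 and obtained counts per gene from HTSeq, and the deposited values are these counts, whole numbers without normalization. The submitters' processing notes name Bowtie 0.12.2 and mm9 in their place. Of 53421 genes, 52489 were matched to a symbol in GENCODE M21. Genes were kept by filterByExpr (minimum count 10, minimum total count 15), which left 17214 with 99.8% of the counts.

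The edgeR 4.0.16 quasi-likelihood test was run under R 4.3.3 with TMM factors, and p-values were adjusted over all genes tested by the Benjamini-Hochberg method. DESeq2 1.42.0 and limma-voom (limma 3.58.1) were alternatives, beside other scalings and filters, a term for replicate 2 and fits without libraries. The depth of 17246821 to 21546595 counts limits genes with few counts. RPKM values are TMM-normalized CPM divided by kilobases of merged exons. Groups and replicate numbers came from the library names. A check of pairing used the correlation of deviations from the group means between same-numbered libraries, which was 0.251, 0.362 and 0.291 for replicates 1, 2 and 4, so a paired fit was tried.

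The members, lists and alternatives were chosen with earlier results of these data known. The genes named are the 7 subunits, Ythdf2, the other subunits with at least 10 counts in a library (Gabrp and Gabrr3 were named after their values were seen), the listed genes past the adjusted threshold or up to 2 per list with the smallest unadjusted p under 0.05, and the 3 genes most like Gabra6 and Gabrd. Some listed genes are not reported here and were left out of the lists and their counts.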

Additional observations from a re-analysis of the deposited data

How the results depend on the processing

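The counts of calls moved with the filter, the test and the libraries used, and the cause was not tested. The 104 genes past the adjusted threshold became 639 with no filter, 3799 with a term for replicate 2, 9186 without both libraries of replicate 2, 24 with limma-voom and 1320 with DESeq2, and 0 to 3239 with 1 library left out, with 0 when replicate 1 or 4 of either group was left out. With the replicate block, which pairs same-numbered libraries, 232 genes were called, 80 of them among the 104, and no call of the 7 subunits changed. The subunits called went from 0 to 3 with the term for replicate 2, 5 without both libraries of replicate 2 and 0 to 2 with 1 library left out. The 2 calls among 43 pathway genes became 5 with no filter, 19 with the term, 34 without replicate 2, 0 with limma-voom, 9 with DESeq2 and 0 to 16 with 1 library left out. Of all genes, 0.604% were called in the main fit, 22.1% with the term, 52.7% without replicate 2 and 7.67% with DESeq2. The 16 pathway calls came without shCtrl replicate 2, where 18.3% of all genes were called.

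The direction changed for 3 subunits. Gabra4 went from -0.01 to 0.0232 by library size, 0.000195 with at least 10 counts in every library, 0.078 without replicate 2, and -0.0925 to 0.0485 with 1 library left out. With 1 library left out, Gabra6 ranged from -0.36 (without shYthdf2 replicate 2) to 0.95 (without shCtrl replicate 2) and Gabrd from -0.475 to 0.0505. Gabra2, Gabra3, Gabra5 and Gabrb2 kept their direction in all 15 alternatives. With 1 library left out, Gabra2 ranged from 0.15 to 0.71, Gabra3 from 0.35 to 0.72, Gabra5 from -1.54 to -0.89 and Gabrb2 from 0.17 to 0.62.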
